A study of Mus musculus with 12 samples.

Results

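The 10 core circadian clock genes Arntl (also named Bmal1), Clock, Per1, Per2, Per3, Cry1, Cry2, Nr1d1, Nr1d2 and Dbp were followed through 12 bulk RNA-seq libraries of whole mouse retina. They were found by Entrez ID among 27179 gene IDs, all 10 were counted in every library, and all 10 were among the 16475 genes that passed the filter on low counts. The libraries form 4 groups of 3: 12-month knockout (KO), 12-month control, 3-month KO and 3-month control. The KO groups carry the label glia-specific ABCA1 knockout, a deletion of the cholesterol and phospholipid exporter ABCA1 in glial cells. The controls carry the label control with no further genotype, while the authors' name for their 12-month comparison calls its controls WT. The protocol calls the animals Astro-KO. The Cre driver, the strain, the sex, the number of animals behind a library and the hour and lighting at dissection were not in the sources used here, so p-values measure only the spread between these libraries.

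The molecular clock is a loop of transcription and repression that runs in nearly every cell. CLOCK and BMAL1, the product of Arntl, bind E-box DNA and switch on the Per, Cry, Nr1d and Dbp genes, PER and CRY proteins then repress CLOCK and BMAL1, and the REV-ERB receptors made from Nr1d1 and Nr1d2 repress Arntl through ROR elements. As a result Arntl mRNA peaks at about the opposite time of day from Dbp, Nr1d1 and the Per genes, and the mammalian retina holds such clocks in its neurons and glia. Because of this opposition, Arntl was set against the E-box-driven genes in each library.

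The elements of this loop can be seen at the start sites of 4 members, shown because they stand for its 3 arms: the E-box that CLOCK and BMAL1 bind, the D-box that DBP binds, and the ROR element through which REV-ERB acts on Arntl. The sequences are from RefSeq on GRCm38.p6 and are written 5′ to 3′ on the strand of the gene, with the element in capitals.

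Per1, E-box, chr11:69098771-69098800, plus strand: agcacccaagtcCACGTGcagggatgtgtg
Cry1, E-box, chr10:85185097-85185126, minus strand: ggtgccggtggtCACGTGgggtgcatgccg
Per3, 2 D-boxes, chr4:151044808-151044878, minus strand: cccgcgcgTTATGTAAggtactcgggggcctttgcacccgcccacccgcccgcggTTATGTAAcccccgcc
Arntl, ROR element, chr7:113207529-113207558, plus strand: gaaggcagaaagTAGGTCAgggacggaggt

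The Per1 run lies 178 to 149 bases before that start site, inside a longer Per1 transcript but in no exon, and the Cry1 run lies 72 to 43 bases before its start site. The Per3 run lies 213 to 143 bases before its start site, and the Arntl run lies in an Arntl exon, at bases 19 to 48 after its start site. Both strands of windows reaching from 250 bases before to 50 bases after a start site were searched for CACGTG (E-box), CACGTT (a variant called E-prime), TTATGTAA or TTACGTAA (D-box) and TAGGTCA (ROR element). The table held 13 windows for 9 members and no entry for Per2. The E-box was in 2 of the 13 windows, against 7.15% of 32851 windows of all genes, and the E-prime letters were in 3 (Cry1, Cry2 and Nr1d1), against 4.68%. The D-box was in 1 member window, against 1.06%, and the ROR element in 1, against 2.61%. These matches describe the letters of the windows and are no measure of binding.

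Library totals ran from 29027099 to 30438026 counts, and each member had between 1154 and 16477 counts in a library. The retina label was checked against 27 markers of retinal cells, all of which passed the filter. CPM below are counts scaled to a common library total. Abca1 itself was not lower in KO retinas, at 27.4, 39.01 and 42.5 CPM in 12-month KO libraries against 32.7, 27.7 and 31.9 CPM in 12-month control libraries, and at 27.5, 27.2 and 24.3 CPM in 3-month KO libraries against 20.7, 20.9 and 26.6 CPM in 3-month control libraries. The deleted exons are not given and other retinal cells also express Abca1, so its whole-retina count does not check the genotype labels. A pair of libraries stood apart from the other replicates of their groups: replicate 1 of the 12-month KO group, with 2.38% of its counts on 13 mitochondrial mRNAs, and replicate 2 of the 3-month control group, with 1.002% on these and 0.300% on 3 lens crystallin genes. The other 10 libraries had 1.47% to 1.91% mitochondrial mRNA and at most 0.0111% lens mRNA. All 3 libraries of the 3-month control group held more RNA of 3 skeletal muscle genes (Acta1, Tnnc2 and Ckm), 0.00304% to 0.00365% against 0.000296% to 0.000469% in the other groups. Some results are given with and without the 2 libraries that stood apart, and the others only with them. The muscle RNA was in all 3 libraries of its group, so no 3-month control value is free of it.

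On GRCm38.p6 the activators lie at chr7:113178471-113314126 (Arntl) and chr5:76209868-76305603 (Clock). The period genes lie at chr11:69095108-69109965 (Per1), chr1:91415977-91459351 (Per2) and chr4:150997018-151044707 (Per3), and the cryptochromes at chr10:85131700-85185054 (Cry1) and chr2:92403646-92434085 (Cry2). Nr1d1 lies at chr11:98767932-98775377, Nr1d2 at chr14:18204056-18239106 and Dbp at chr7:45705100-45710203.

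Levels are CPM scaled by trimmed mean of M-values (TMM). Per kilobase of exon, the members spanned a wide range. Nr1d1 stood highest at 160 CPM per kilobase, followed by Dbp at 60.0, Per1 at 37.97, Cry2 at 28.8, Nr1d2 at 24.0, Cry1 at 19.9, Per3 at 14.9, Arntl at 13.03, Per2 at 8.74 and Clock at 4.95 CPM per kilobase. In that order Cry2 and Nr1d2 overlapped in their ranges over the 12 libraries (25.1 to 31.9 and 17.2 to 28.04 CPM per kilobase), as did Nr1d2 and Cry1 (17.3 to 22.1) and Per3 and Arntl (12.2 to 15.6 and 11.9 to 14.6). The other neighbours did not overlap. Exons of 4 members share bases with a gene on the other strand, and whether the counting used strand was not stated. These are Nr1d1 with Thra (263 of 3077 exonic bases), Dbp with Sphk2 (539 of 2993), Cry2 with D930015M05Rik (295 of 6320) and Arntl with Gm45355 (33 of 7523).

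Among the activators, Arntl moved little. It had 101, 102 and 96.6 CPM in 12-month KO libraries, 93.9, 105 and 109 CPM in 12-month control libraries, 98.5, 97.1 and 99.2 CPM in 3-month KO libraries, and 92.7, 89.4 and 91.0 CPM in 3-month control libraries. The 3-month control libraries were the lowest 3 of the 12, and the 3-month KO libraries did not overlap with them. The fitted log2 fold change was 0.11 ± 0.07 for KO against control at 3 months (adjusted p = 0.69) and 0.18 ± 0.07 for 12 against 3 months in controls (adjusted p = 0.26), each with its standard error, so neither passed the threshold of 0.05. Clock, the partner of BMAL1, had 56.5, 68.9 and 76.1 CPM in 12-month KO libraries, 61.5, 67.6 and 65.9 CPM in 12-month control libraries, 72.4, 74.3 and 68.3 CPM in 3-month KO libraries, and 79.5, 55.4 and 69.6 CPM in 3-month control libraries. Its 2 lowest values belonged to the 2 libraries that stood apart, and the 12-month control libraries lay below the 3-month KO libraries while every other pair of groups overlapped.

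**Figure D1:**
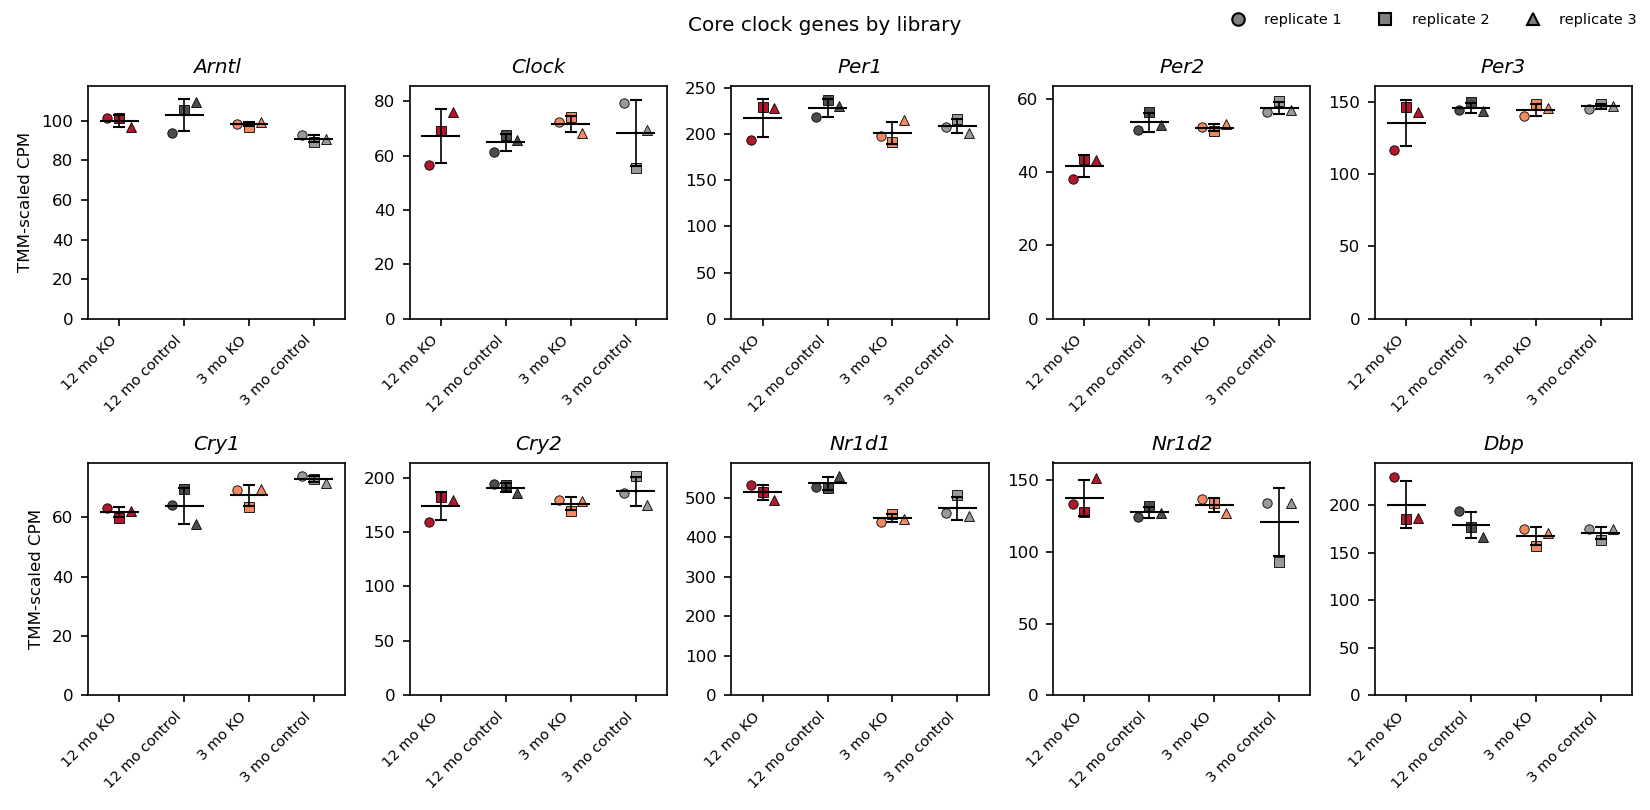
TMM-scaled CPM (vertical axis, from 0) of the 10 clock genes in 12 retinal libraries, by group from 12-month KO to 3-month control. Points are libraries with the replicate number as the symbol, and lines and bars are the mean and SD of 3; Per2 is lowest in the 12-month KO group and Nr1d1 is higher at 12 than at 3 months in both genotypes.

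Per2, a repressor that pairs with the cryptochromes whose transcription, like that of Per1, is also induced by light in the brain's clock, had the largest difference between KO and control at 12 months. It had 38.1, 43.5 and 43.4 CPM in 12-month KO libraries, 51.4, 56.4 and 52.8 CPM in 12-month control libraries, 52.1, 51.0 and 53.0 CPM in 3-month KO libraries, and 56.3, 59.4 and 57.0 CPM in 3-month control libraries. All 3 libraries of the 12-month KO group lay below the other 9, and at each age KO and control did not overlap. The group means were 41.7 ± 3.08 CPM in 12-month KO, 53.5 ± 2.57 CPM in 12-month control, 52.1 ± 0.965 CPM in 3-month KO and 57.6 ± 1.61 CPM in 3-month control (SD, n = 3 each).

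Per1, another repressor of CLOCK and BMAL1, had 193.5, 229.6 and 228 CPM in 12-month KO libraries, 218, 236 and 230.4 CPM in 12-month control libraries, 198, 191 and 215 CPM in 3-month KO libraries, and 207, 217 and 202 CPM in 3-month control libraries. In controls every 12-month library was above every 3-month library, while the KO libraries of the 2 ages overlapped. Per3 had 117, 146 and 143 CPM in 12-month KO libraries and 139.9 to 149.7 CPM in the other 9. Its only value outside that band came from replicate 1 of the 12-month KO group. The fitted log2 fold change for KO against control at 12 months was -0.36 ± 0.08 for Per2, -0.07 ± 0.08 for Per1 and -0.11 ± 0.08 for Per3, and the differences between these genes were not tested. Without replicate 1 of the 12-month KO group the values were 0.0041 for Per1 and -0.011 for Per3.

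The cryptochromes, which join the PER proteins in the repressor complex, did not pass the test in any of the 4 comparisons. Cry1 had 63.0, 59.8 and 62.1 CPM in 12-month KO libraries, 64.2, 69.5 and 57.7 CPM in 12-month control libraries, 69.2, 63.3 and 69.5 CPM in 3-month KO libraries, and 73.8, 72.9 and 71.7 CPM in 3-month control libraries. The 3-month control libraries were the highest 3 of the 12, without overlap with either the 3-month KO or the 12-month control libraries. The log2 fold change of Cry1 for 12 against 3 months was -0.13 ± 0.08 in KO (adjusted p = 0.52) and -0.19 ± 0.08 in controls (adjusted p = 0.27). Cry2 had 159, 182 and 179.8 CPM in 12-month KO libraries against 194, 193 and 186 CPM in 12-month control libraries, which did not overlap, with a log2 fold change of -0.14 ± 0.07 (adjusted p = 0.61). Over 23 alternative settings this 12-month log2 fold change of Cry2 ran from -0.17 to -0.08. At 3 months the Cry2 groups overlapped, at 169 to 179.8 CPM in KO libraries and 175 to 202 CPM in control libraries.

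The REV-ERB genes make the second, interlocked loop. Nr1d1 had 532, 516 and 494 CPM in 12-month KO libraries, 529, 526 and 556 CPM in 12-month control libraries, 439, 460.5 and 448 CPM in 3-month KO libraries, and 461, 507 and 453.5 CPM in 3-month control libraries. In each genotype the libraries of the 2 ages did not overlap, with the 12-month libraries higher. The log2 fold change for 12 against 3 months was 0.19 ± 0.07 in KO (adjusted p = 0.15) and 0.18 ± 0.06 in controls (adjusted p = 0.20). Without replicate 2 of the 3-month control group these were 0.19 (adjusted p = 0.044) and 0.23 (adjusted p = 0.042), and the share of all genes called without that library is not given here. Thra, whose exons overlap Nr1d1 on the other strand, had a log2 fold change of -0.03 in KO and -0.01 in controls for the same comparisons. Nr1d2 was 128 to 152 CPM in 12-month KO libraries, 124 to 132 CPM in 12-month control libraries, 127 to 137 CPM in 3-month KO libraries and 93.3 to 134 CPM in 3-month control libraries, and all groups overlapped. The value of 93.3 CPM came from replicate 2 of the 3-month control group, and without that library the Nr1d2 log2 fold change for KO against control at 3 months was -0.02 in place of 0.14.

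Dbp, the output gene whose product binds D-boxes, had 229.8, 186 and 187 CPM in 12-month KO libraries, 194, 177 and 167 CPM in 12-month control libraries, 175, 157 and 171 CPM in 3-month KO libraries, and 175, 163.5 and 175 CPM in 3-month control libraries. The highest value was replicate 1 of the 12-month KO group. In KO the 12-month libraries were all above the 3-month libraries, with a log2 fold change of 0.26 ± 0.08 (adjusted p = 0.13). Without replicate 1 of the 12-month KO group this was 0.15, and the value for KO against control at 12 months was 0.05 in place of 0.16. That library also had the lowest Per2, Per3 and Cry2 of all 12, and whether its RNA quality or cell content bears on these values was not tested.

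**Figure D2:**
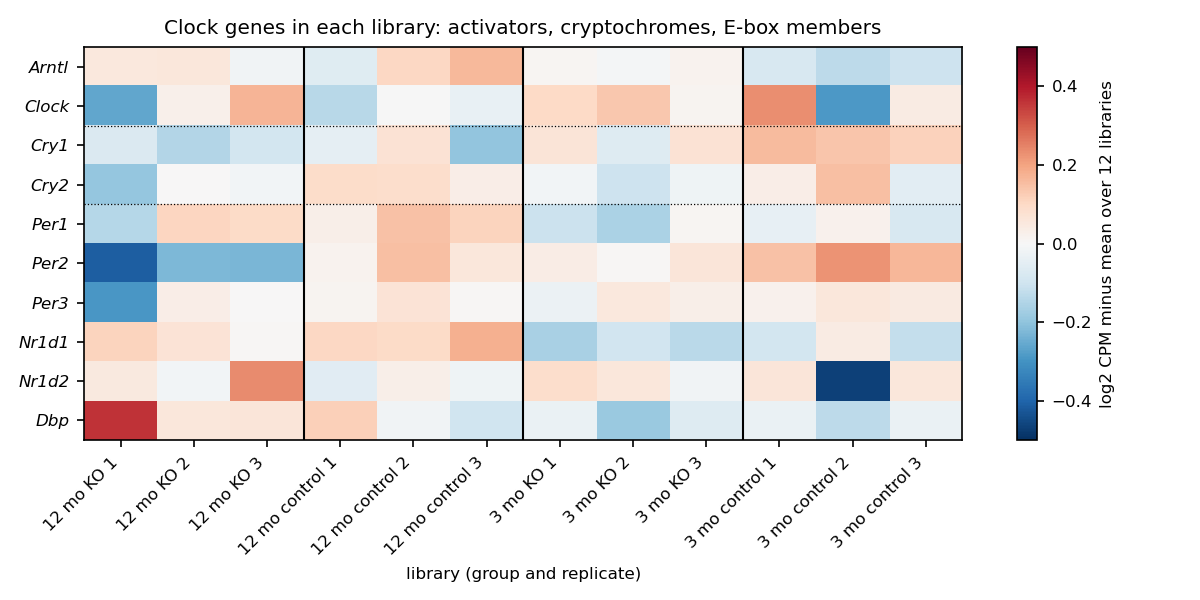
log2 CPM of each clock gene (rows) in each library (columns) minus its mean over the 12 libraries, on a color scale of log2 units. Dotted lines part the activators, the cryptochromes and the E-box-driven members, and no library shows the activators on one side and all E-box-driven members on the other. Replicate 1 of the 12-month control group came nearest, with Arntl and Clock below their means and every E-box-driven member except Nr1d2 above. Clock was grouped with Arntl as the partner of BMAL1, not by peak time, so this pattern gives no sampling time.

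Over all 12 libraries the ratio of the highest to the lowest value ran from 1.225 for Arntl to 1.63 for Nr1d2, with 1.56 for Per2 and 1.46 for Dbp. The median of the 10 members was 1.28, beside 1.31 for the 4199 genes with a mean level in the range of the members (51.2 to 494 CPM). The median SD within groups was 0.0859 log2 units for the members and 0.0974 for those genes. Clock and Nr1d2 had the largest within-group SDs, at the percentiles 93.3 and 92.0 among those 4199 genes, and without the 2 libraries that stood apart these were 82.3 and 77.7. Without those libraries the median ratio was 1.23 for the members and 1.19 for the genes in the range.

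For KO against control at 12 months, Per2 was the member with the largest difference, at a fold of 0.778 (95% interval 0.697 to 0.869). edgeR's quasi-likelihood test called 0 of the 10 members at an adjusted p below 0.05, against 0.212% of all genes, and the adjusted p of Per2 was 0.055. At an unadjusted p below 0.05 it called 1 member, Per2, against 8.7% of all genes. Of the members, DESeq2 and limma-voom with quality weights each called Per2 alone, with adjusted p-values of 0.0021 and 0.011. Both also called more of all genes than edgeR did, as counted in the closing section. Leaving out one library at a time gave Per2 adjusted p-values of 0.011 (without replicate 2 of the 3-month control group) to 0.32 (without replicate 2 of the 12-month control group). In the authors' deposited table for this comparison, which called 0.636% of all genes with an adjusted p, Per2 had a log2 fold change of -0.30 and an adjusted p of 0.030. The other 9 members in the authors' deposited table had adjusted p-values of 0.71 or more. Log2 fold changes in that table were often smaller than edgeR's, so here and below the sizes of the 2 are not comparable. Per2 and Cry2 were the 2 members whose groups did not overlap, against 16.6% of all genes. The members' median log2 fold change was -0.06, with 3 above and 7 below 0, and the median of all genes was 0.00.

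For KO against control at 3 months, the differences were small, the largest being -0.14 on the log2 scale, for Per2. edgeR called 0 of 10 members, against 0.225% of all genes, and 0 at an unadjusted p below 0.05, against 7.5% of all genes. DESeq2 and limma-voom also called 0. Arntl, Per2 and Cry1 did not overlap between groups, against 15.6% of all genes, with Arntl higher in KO and both repressors lower. The Per2 log2 fold change was -0.14 ± 0.08 (adjusted p = 0.68), with a 95% interval of -0.30 to 0.01. The median of the members was -0.04, beside 0.00 for all genes. The muscle mRNAs named above differed between these same groups, and their part in these values was not tested.

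For 12 against 3 months in KO retinas, Per2 fell, to 41.7 CPM at 12 months against 52.1 CPM at 3 months, a log2 fold change of -0.32 ± 0.08 and a fold of 0.801 (adjusted p = 0.027). It was the 1 member of 10 that was called, against 2.37% of all genes in either direction and 0.832% in the lower direction. Per2 lost the call when any one library of the 3-month KO group or replicate 1 or 2 of the 12-month KO group was left out (adjusted p = 0.053 to 0.14) and had an adjusted p of 0.015 without both libraries that stood apart. Without both, a setting added after seeing the data, Per1 (log2 fold change 0.18, adjusted p = 0.027) and Nr1d1 (0.17, adjusted p = 0.018) were called as well. The share of all genes called in that setting is not given here. For KO against control at 12 months, calls over all genes rose without both libraries. At an unadjusted p below 0.05 the fit called Per2, Nr1d1 and Dbp, against 13.3% of all genes. Those 3 and Cry1 did not overlap between ages, against 22.2% of all genes.

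For 12 against 3 months in control retinas, edgeR called 0 of 10 members, against 2.11% of all genes, while 3 members, Arntl, Cry1 and Nr1d1, had an unadjusted p below 0.05, against 12.5% of all genes. DESeq2 called 0 and limma-voom called 1 (Nr1d1, adjusted p = 0.0031). The share of all genes that limma-voom called in this comparison is not given here. Arntl, Per1, Cry1 and Nr1d1 did not overlap between ages, against 17.5% of all genes, with Arntl, Per1 and Nr1d1 higher and Cry1 lower at 12 months. The muscle mRNAs named above also differed between these groups, and their part in these values was not tested. Per2 had a log2 fold change of -0.10 ± 0.08 (adjusted p = 0.66). The 4 comparisons share libraries in pairs, so their values are not independent of each other.

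The difference of the KO effects, 12 minus 3 months, was -0.22 ± 0.11 on the log2 scale for Per2 (95% interval -0.44 to 0.01, adjusted p = 0.999). edgeR called 0 of 10 members, against 0.127% of all genes, and 0 at an unadjusted p below 0.05, against 4.33%. DESeq2 and limma-voom also called 0. In bulk tissue, fewer cells that make Per2 and less Per2 RNA per cell cannot be told apart.

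**Figure D3:**
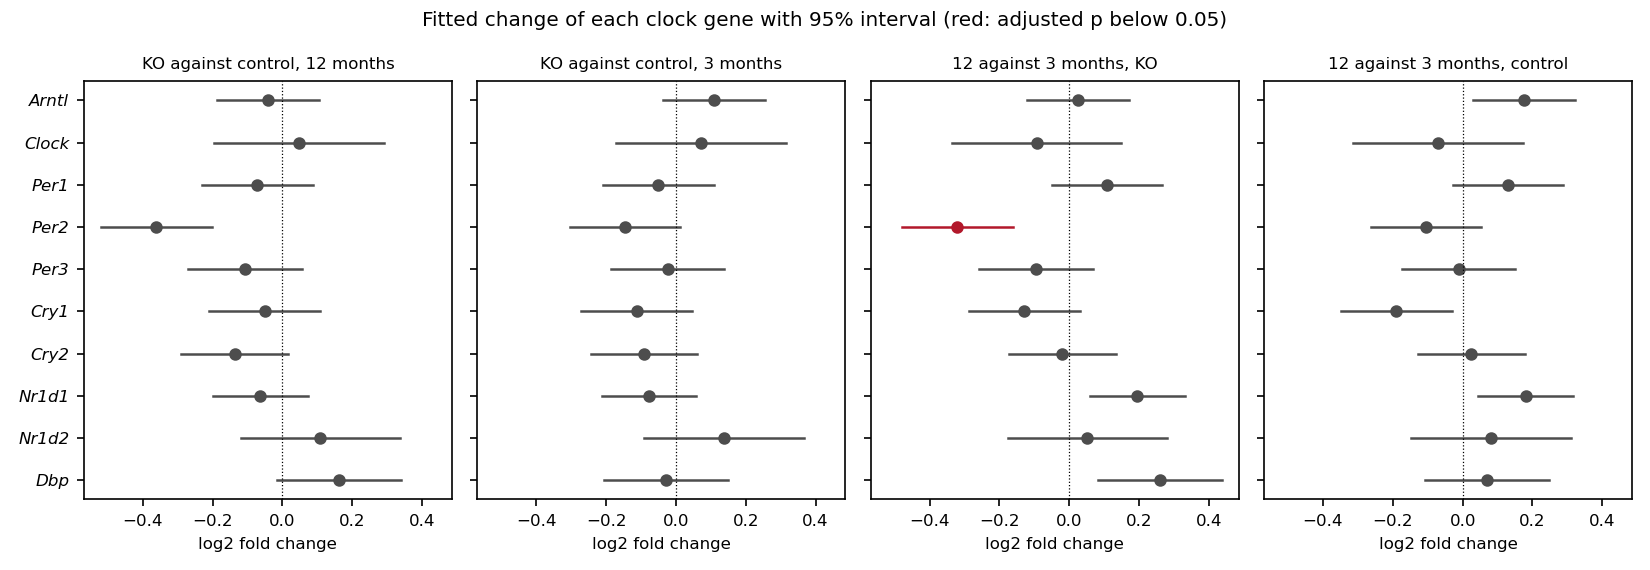
Fitted log2 fold change (points) with its 95% interval (lines) of each clock gene in the 4 comparisons, KO over control or 12 over 3 months. Only Per2 in KO retinas between ages is red, with an adjusted p below 0.05, and its interval for KO against control at 12 months also lies below 0.

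The balance of E-box-driven members and activators was then compared between libraries. It was taken as the mean log2 CPM of the 6 E-box-driven members (Per1, Per2, Per3, Nr1d1, Nr1d2 and Dbp) minus that of Arntl and Clock. This difference averaged 0.98 ± 0.05 in 12-month KO, 1.03 ± 0.08 in 12-month control, 0.91 ± 0.04 in 3-month KO and 1.03 ± 0.12 in 3-month control (SD, n = 3 each). The 12 libraries spanned 0.87 to 1.15, and without the 2 that stood apart 0.87 to 1.12. KO and control libraries overlapped at each age, and the 3-month control libraries alone spanned 0.92 to 1.15. The 1.15 came from replicate 2 of that group, which stood apart and had the lowest Clock of all 12 libraries. The other 3-month control libraries had 0.92 and 1.02. Clock, an activator in this balance, had the largest within-group SD of the members. It was placed there as the partner of BMAL1, not by its peak time, so this balance gives no sampling time.

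The ratio of Dbp to Arntl, a pair with opposite peaks, differed between libraries by more. Its log2 value was 1.18, 0.87 and 0.95 in 12-month KO libraries, 1.048, 0.75 and 0.61 in 12-month control libraries, 0.83, 0.70 and 0.79 in 3-month KO libraries, and 0.91, 0.87 and 0.94 in 3-month control libraries. The 12-month groups overlapped and the 3-month groups did not, with the KO libraries lower. The log2 ratio of Nr1d1 to Arntl lay between 2.16 and 2.503 in the 12 libraries. That of Per2 to Arntl had group means of -1.26 in 12-month KO, -0.94 in 12-month control, -0.92 in 3-month KO and -0.66 in 3-month control.

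**Figure D4:**
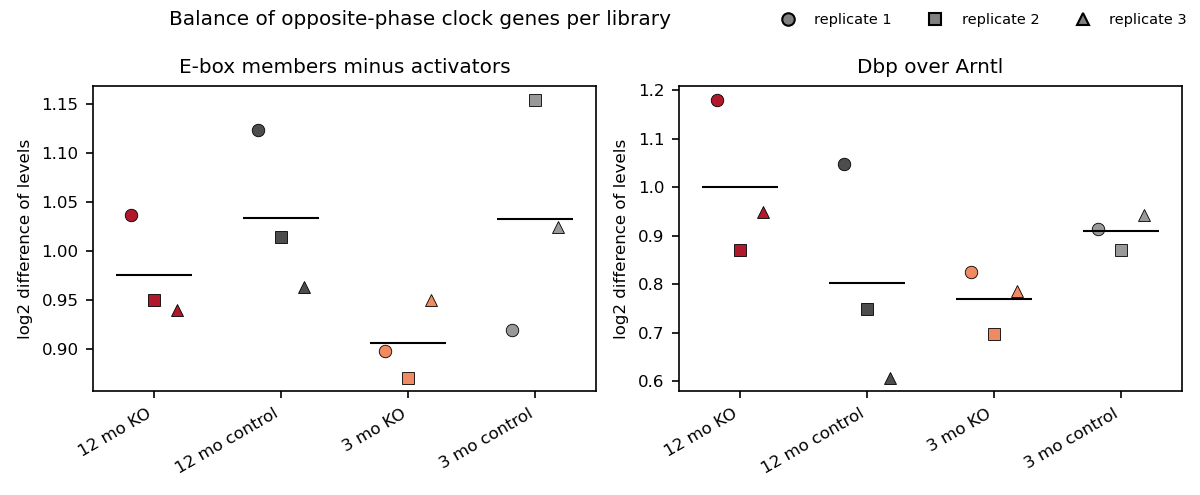
Log2 difference of levels per library (points, with replicate number as symbol) and group mean (line): E-box-driven members minus activators on the left, Dbp over Arntl on the right. The axes do not start at 0; the left panel spans 0.87 to 1.15 and the right panel 0.61 to 1.18.

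Across the 12 libraries, Arntl was set against each of the other 9 members. Pearson's r of Arntl with Dbp was 0.14 (Spearman's rho 0.11, permutation p = 0.66) and with Nr1d1 0.48 (rho 0.42, permutation p = 0.11). It was 0.39 with Per1, -0.34 with Per2, -0.22 with Per3, 0.33 with Nr1d2, 0.01 with Clock and -0.19 with Cry2 (two-sided permutation p between 0.21 and 0.98 for r). The largest was with Cry1, at r = -0.65 (rho = -0.64, permutation p = 0.024, adjusted p = 0.21 over 9 pairs), and none of the 9 passed adjustment. For Cry1, r was -0.36 (permutation p = 0.30) without the 2 libraries farthest from the median of Arntl. That check also narrows the range of Arntl, so it cannot show whether the relation rests on those libraries. The r of Arntl with Cry1 was -0.56 (permutation p = 0.093) without the 2 libraries that stood apart and -0.21 (exact permutation p = 0.81) after the group means were subtracted. Dbp and Arntl, a pair with opposite peaks, had r = -0.24 (exact permutation p = 0.61) after that subtraction in all 12 libraries. In the 10 without the 2 that stood apart it was -0.70, given as a description with no test. In that same setting Arntl had r = 0.57 with Per1, 0.50 with Per2, 0.51 with Nr1d1, 0.11 with Per3 and -0.10 with Nr1d2. In those 10 libraries with group means kept, r of Arntl was 0.61 with Per1 and 0.60 with Nr1d1 (unadjusted permutation p = 0.061 and 0.067).

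Other genes of the clock were read from a list. Of 20 other clock components and regulators, 0 were called by edgeR for KO against control at either age (against 0.212% of all genes at 12 months and 0.225% at 3 months). At an unadjusted p below 0.05 these were 3 at 12 months, against 8.7% of all genes, and 0 at 3 months, against 7.5%. With age, 1 of the 20 was called, as higher at 12 months, in KO (against 2.37% of all genes) and 1 in controls (against 2.11%). The gene called in KO was Ciart, a repressor of CLOCK and BMAL1, with 21.3, 21.0 and 20.1 CPM in 12-month KO libraries against 12.5, 15.3 and 14.4 CPM in 3-month KO libraries (log2 fold change 0.57 ± 0.11, adjusted p = 0.0075, and 0.076 without replicate 1 of the 3-month KO group). In controls Ciart had 19.4, 15.6 and 16.1 CPM at 12 months against 14.1, 15.8 and 15.4 CPM at 3 months, which overlapped. The gene called in controls was Nfil3, which competes with DBP for D-boxes, with 33.0, 34.8 and 36.5 CPM in 12-month control libraries against 24.6, 24.3 and 23.5 CPM in 3-month control libraries (log2 fold change 0.52 ± 0.09, adjusted p = 0.0016).

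In KO retinas Nfil3 had 27.6, 24.7 and 27.1 CPM at 12 months against 27.8, 24.8 and 24.9 CPM at 3 months, which overlapped. Its log2 fold change for KO against control was -0.39 ± 0.09 at 12 months (adjusted p = 0.083) and 0.10 ± 0.09 at 3 months, and the difference between these did not pass (adjusted p = 0.35). In the authors' deposited table the 12-month value of Nfil3 was -0.31, with an adjusted p of 0.027, and it was the 1 gene of the 20 called there, against 0.636% of all genes. The median log2 fold change of the 20 genes was -0.01 for KO against control at 12 months (9 above and 11 below 0) and 0.08 at 3 months (13 above and 7 below). For 12 against 3 months it was 0.04 in KO (12 above and 8 below) and 0.07 in controls (17 above and 3 below), beside 0.00 for all genes in each of the 4 comparisons.

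Of 13 output genes of E-boxes and D-boxes, 1 was called, in controls between ages, against 2.11% of all genes. This was Cdkn1a, a cell cycle inhibitor, which was lower at 12 than at 3 months (2.24 to 3.68 against 5.61 to 7.01 CPM, log2 fold change -1.01 ± 0.18, adjusted p = 0.0027). It is also among the 15 glucocorticoid-responsive genes. Of those 15, edgeR called 1 for KO against control at 12 months, against 0.212% of all genes. This was Ddit4, a stress-induced inhibitor of mTORC1, which was lower in KO (275, 275 and 287 CPM in KO against 501, 488 and 399.8 CPM in control libraries, log2 fold change -0.73 ± 0.10, adjusted p = 0.00063). Of the 15, the authors' deposited table called Ddit4 lower and Mt2, a metallothionein, higher (log2 fold change 0.48, adjusted p = 0.00091), against 0.636% of all genes. The adjusted p of Mt2 by edgeR was 0.082. Ddit4 was also higher at 12 than at 3 months in controls (0.49 ± 0.10, adjusted p = 0.0061), where 1 of the 15 was called higher and 1 lower, against 2.11% of all genes. Ddit4 lost that call in 2 of 23 alternatives. Its adjusted p was 0.053 without replicate 2 of the 12-month control group and 0.11 at most over the alternatives. Of 18 genes with known retinal rhythms, 15 were tested and 1 was called with age in each genotype (against 2.37% of all genes in KO and 2.11% in controls), Drd4, the dopamine receptor of photoreceptors. Drd4 was higher at 12 than at 3 months in KO (719 to 881 against 549.6 to 562 CPM, log2 fold change 0.48 ± 0.09, adjusted p = 0.0069) and in controls (908 to 1063 against 554 to 719.6 CPM, 0.69 ± 0.10, adjusted p = 0.00021). For KO against control at 12 months edgeR called 0 of the 15 (2 at an unadjusted p below 0.05, against 8.7% of all genes). The authors' deposited table called 2 of them lower in KO, against 0.636% of all genes: Drd4 (log2 fold change -0.31, adjusted p = 0.017) and Drd2, another dopamine receptor (-0.28, adjusted p = 0.041). In edgeR's fit their values were -0.38 ± 0.09 (adjusted p = 0.14) for Drd4 and -0.33 ± 0.07 (adjusted p = 0.081) for Drd2.

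Light-induced and immediate early genes, which neurons switch on within minutes of stimulation and which share promoter elements with Per1 and Per2, gave calls with age in both genotypes. Of 19, 6 were higher and 1 lower at 12 than at 3 months in KO, against 2.37% of all genes called in either direction, and 10 were higher and 2 lower in controls, against 2.11%. For KO against control edgeR called 0 at either age. At an unadjusted p below 0.05 these were 8 at 12 months, against 8.7% of all genes, and 2 at 3 months, against 7.5%. The authors' deposited table for 12 months called 4 of the 19, all lower in KO, against 0.636% of all genes. In the authors' deposited table these were Ier2 (log2 fold change -0.39, adjusted p = 0.0029), Nr4a1 (-0.33, adjusted p = 0.021), Dusp1 (-0.32, adjusted p = 0.021) and Npas4 (-0.37, adjusted p = 0.024), and edgeR's adjusted p-values for the 4 were 0.072 to 0.14. The median log2 fold change of the 19 with age was 0.21 in KO and 0.51 in controls, beside 0.00 for all genes. Junb had 97.0, 84.6 and 79.2 CPM in 12-month KO libraries against 54.5, 50.5 and 56.3 CPM in 3-month KO libraries (log2 fold change 0.69 ± 0.09, adjusted p = 0.00014), and its value in controls was 0.76 ± 0.09. Nr4a1 had log2 fold changes of 0.61 ± 0.09 in KO and 0.94 ± 0.09 in controls, Egr1 0.93 ± 0.12 and 0.91 ± 0.12, and Atf3 0.80 ± 0.15 and 0.57 ± 0.15. The Egr1 call in controls was lost without both libraries that stood apart (adjusted p = 0.051), and the Atf3 call in controls was lost with 9 of the 12 libraries left out one at a time (adjusted p = 0.056 to 0.27). Vgf, a secreted neuropeptide precursor, was lower, at -0.37 ± 0.08 in KO and -0.51 ± 0.08 in controls, and lost its call in KO without replicate 1 or 3 of the 3-month KO group or replicate 2 of the 12-month KO group (adjusted p = 0.058 to 0.095). These genes moved between the same ages as Nr1d1, and their part in the clock values was not tested.

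**Figure D5:**
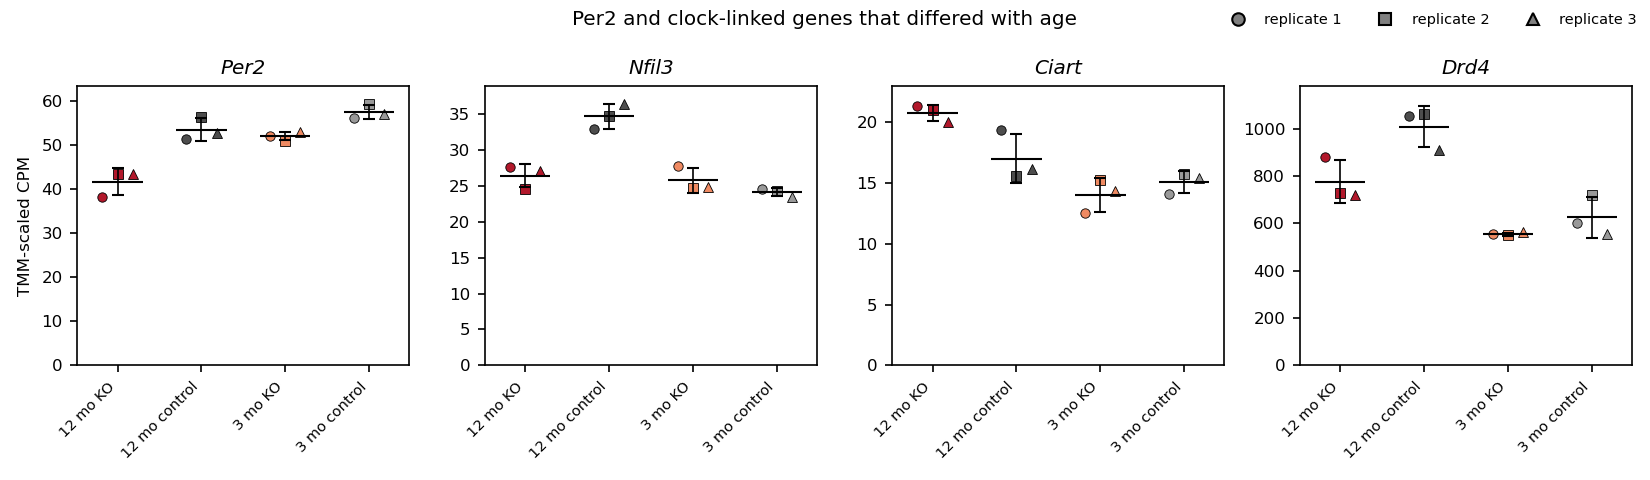
TMM-scaled CPM (from 0) of Per2, Nfil3, Ciart and Drd4 in each library, with group mean and SD of 3. Per2 is lowest and Ciart highest in the 12-month KO group, Nfil3 is highest in the 12-month control group, and Drd4 is higher at 12 than at 3 months in both genotypes.

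The genes most like Arntl over the 12 libraries, by Pearson's r of log2 CPM after the group means were subtracted and among 11758 genes with a mean of at least 5 CPM, were Usp2 (r = 0.93), Thumpd3 (0.93), C2cd2 (0.92), Nono (0.92) and Arg2 (0.91). Those most like Dbp were Camk2n2 (0.95), Tmem160 (0.93), Acbd6 (0.93), Hnrnpa0 (0.92) and Ubfd1 (0.92). No member was among the 5 most alike genes of either. Dbp and Per3 had r = -0.81, Dbp and Per2 -0.72, and Dbp and Per1 -0.68. Without the 2 libraries that stood apart these were -0.38, -0.13 and -0.07. The values of Dbp with some other members moved the other way or changed sign: without the 2 libraries r was -0.70 in place of -0.24 with Arntl, -0.71 in place of -0.13 with Nr1d1, and 0.67 in place of -0.47 with Cry2. For Arntl, r was 0.57 in place of 0.16 with Per1, 0.50 in place of 0.09 with Per2 and 0.51 in place of 0.20 with Nr1d1. Other pairs changed less: Dbp had r = -0.44 in place of -0.39 with Clock and 0.59 in place of 0.48 with Cry1. Arntl had r = -0.24 in place of -0.21 with Cry1. The likeness of some members to Arntl or Dbp thus depended on these 2 libraries, and pairs without Arntl or Dbp are not given. All of these values share the libraries and their depth, and they describe likeness only.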

How the data were processed

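Poly(A) RNA with an integrity number above 8 was sequenced as stranded libraries, per the labels' protocols. Per the submitters' processing notes, HISAT2 2.1.0, featureCounts 1.6.4 and DESeq2 1.22.1 were used with GRCm38. For each of the 12 libraries the authors deposited read counts, not normalized, by Entrez ID. A further table deposited by the authors compares the 12-month groups; it has no column names, and its columns were taken to be the mean normalized count (a signal scaled by the authors), the log2 fold change, its standard error, a test score, the p-value and the adjusted p-value. The test score deposited by the authors was not used. The deposited p-value and log2 columns are quoted as the authors' own. Deposited log2 fold changes were often smaller in size than edgeR's, as for Pdk4 (-0.06 against -1.19) and Cdkn1a (0.31 against 0.73). A few were slightly larger, such as Pde6b (0.031 against 0.025). Whether the authors shrank them toward 0 was not stated, so their sizes are not comparable with edgeR's. All 109 genes below 0.05 in that table had the sign of KO minus control in the counts.

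From the counts, edgeR 4.0.16 (R 4.3.3; filterByExpr, TMM, robust glmQLFit and glmQLFTest) was fitted to all 16475 genes and 12 libraries with 1 coefficient per group. p-values were adjusted by Benjamini-Hochberg over all genes, with a threshold of 0.05. Standard errors are the log2 fold change over the square root of the F statistic, and intervals are 95% by the t distribution. Log2 CPM used a prior count of 2. Correlations used 100000 permutations or, within groups, all permutations. Exon lengths and overlaps are from GENCODE gene models on GRCm38. Alternatives were RLE and upper quartile factors, DESeq2 1.42.0, limma 3.58.1 voom with quality weights, no filter or at least 1 CPM in 3 libraries, a fit to only the libraries compared, a threshold of 0.1, a replicate block, halved counts (in case both reads of a pair were counted), each library left out, and, added after seeing the data, the 2 libraries that stood apart left out together. The fit was tested on simulated data.

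The members and the lists were chosen with earlier results of these data known, so they give no independent support to a pattern seen before. All members were described in each comparison. Of the other lists, called genes were named, up to 4 per list and comparison by smallest p. No replicate was a copy of another: squared differences were 3.52 to 43.1 times the counting variance. The level of 1 marker gene is not reported here.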

Additional observations from a re-analysis of the deposited data

How the results depend on the processing

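Of 1140 member values recomputed under 23 alternatives (22 for the difference of KO effects, which the fit on only the libraries compared could not give), 1096 kept their side of the threshold within 1 standard error, 26 moved by more, 13 passed the threshold newly and 5 lost it. No called member value reversed. For KO against control at 12 months the count of members called was 0, and 1 (Per2) with DESeq2, limma-voom, no filter, a threshold of 0.1, without replicate 2 of the 3-month control group and without the 2 libraries that stood apart. With each library left out it ranged from 0 to 1. For 12 against 3 months in controls it was 0, and 1 (Nr1d1) with limma-voom, without that same control library and without the 2 libraries, with a leave-one-out range of 0 to 1. For 12 against 3 months in KO it was 1 (Per2), 2 (with Nr1d1) with limma-voom and without that control library, and 3 (with Per1) without the 2 libraries, with a leave-one-out range of 0 to 2. The 2 other comparisons gave 0 throughout. The cause of these changes was not tested. Over all genes, the calls for KO against control at 12 months numbered 35, against 131 with DESeq2, 186 with limma-voom, 64 with no filter and 421 without the 2 libraries. Counts over all genes under the alternatives are not given here for the other comparisons. Uncalled member values changed sign 52 times, with reported sizes up to 0.14 on the log2 scale.

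Arntl correlations changed sign for Clock (r = -0.34 without the 2 libraries farthest from the Arntl median, and -0.34 without the 2 that stood apart), Nr1d2 (-0.11 and -0.26), Per3 (0.025), Cry2 (0.28) and Dbp (-0.23) without the 2 that stood apart, and Per2 (0.094) and Dbp (-0.24) with group means subtracted. None of these alternatives gave a permutation p below 0.05. With the replicate number as a block, Per2 in KO between ages kept its call (adjusted p = 0.035), and the count of members called was 1 in that comparison and 0 in each of the other 4. Over genes, the deviations of same-numbered libraries from their group means had r from -0.28 to 0.13. Differently numbered libraries had r from -0.20 to 0.28. With 3 libraries behind each mean, these values cannot tell whether the numbers pair the libraries. With 3 libraries per group, standard errors of the members' log2 fold changes between 2 groups were 0.06 to 0.12, which limits the size of difference that can be detected.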
